A study of Mus musculus with 2 samples.

Results

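The immune checkpoint receptors and ligands examined here are 10 genes, 5 receptors (Pdcd1, Ctla4, Lag3, Havcr2 and Tigit) and 5 ligands (Cd274, Pdcd1lg2, Cd80, Cd86 and Lgals9). They were chosen by symbol among the 31053 genes of the deposited matrix, and each symbol matched 1 row. The matrix held single-cell RNA sequencing counts of immune cells sorted from B16 tumours, B16 being a mouse melanoma cell line. All mice were 8 weeks old and carried Mettl3 alleles that Cre can excise. METTL3 is the catalytic subunit of the enzyme that writes N6-methyladenosine into RNA. The WT group was Mettl3 fl/fl, Lyz2 +/+, and the KO group, called METTL3 deficient in the labels, was Mettl3 fl/fl, Lyz2 cre/+. Cre was driven by Lyz2, which is active in macrophages, monocytes and granulocytes and in few dendritic cells, so cells of other lineages should keep Mettl3. Each group was 1 library from pooled mice. The study tested antibody blockade of PD-1 in mice of both genotypes, but the labels of these libraries name no antibody. The question addressed here was in which cells of the tumour each checkpoint gene was counted, and at what level in each library.

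Checkpoint receptors are inhibitory surface proteins of lymphocytes, and their ligands are displayed by antigen-presenting and tumour cells. Pdcd1 encodes PD-1, which binds PD-L1 (Cd274) and PD-L2 (Pdcd1lg2). Ctla4 encodes CTLA-4, which competes with the activating receptor CD28 for CD80 and CD86. Lag3 encodes a CD4-related receptor of MHC class II, Havcr2 encodes TIM-3, for which galectin-9 (Lgals9) is a proposed ligand, and Tigit encodes a receptor of the poliovirus receptor Pvr. Several of these receptors accumulate on T cells under lasting antigen exposure in tumours, and interferon gamma is a known inducer of PD-L1 in myeloid and tumour cells.

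The promoters of the genes that encode PD-L1, PD-L2 and galectin-9 are shown because these ligands were counted in the same myeloid classes below and 2 of them are known interferon-inducible genes. The RefSeq table (GRCm38.p6) gave 1 promoter for 8 of the 10 genes, from 250 bases before to 50 bases after the start site. Capitals mark matches to GAAANNGAAA, a pattern of interferon-stimulated response elements searched on both strands, where N is any base. The pattern occurred in 1131 of 32851 promoters (3.44%) and in 1 of the 8, that of Lgals9, with 2 matches on the strand opposite to the one printed. No match says only that these letters were not in the window.
Cd274, chr19:29367188-29367487, plus strand: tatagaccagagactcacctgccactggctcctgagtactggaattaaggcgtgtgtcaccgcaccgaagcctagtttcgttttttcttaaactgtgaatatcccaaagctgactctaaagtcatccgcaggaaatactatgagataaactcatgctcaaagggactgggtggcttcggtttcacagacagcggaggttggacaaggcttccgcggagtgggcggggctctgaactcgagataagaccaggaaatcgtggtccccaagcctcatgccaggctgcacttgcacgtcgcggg
Pdcd1lg2, chr19:29410669-29410968, plus strand: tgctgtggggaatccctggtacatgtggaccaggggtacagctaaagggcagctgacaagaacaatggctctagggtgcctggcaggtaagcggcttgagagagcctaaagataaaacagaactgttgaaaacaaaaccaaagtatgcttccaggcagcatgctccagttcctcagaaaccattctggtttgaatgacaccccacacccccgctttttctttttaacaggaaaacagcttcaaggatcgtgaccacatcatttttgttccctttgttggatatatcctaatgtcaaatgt
Lgals9, chr11:78984875-78985174, minus strand: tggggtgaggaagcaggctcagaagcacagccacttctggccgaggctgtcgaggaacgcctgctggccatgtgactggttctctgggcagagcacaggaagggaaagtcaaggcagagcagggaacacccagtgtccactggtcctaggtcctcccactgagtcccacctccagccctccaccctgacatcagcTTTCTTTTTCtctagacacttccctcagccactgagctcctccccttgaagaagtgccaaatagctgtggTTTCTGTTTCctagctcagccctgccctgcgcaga

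The library labelled WT held 5895 barcodes with 45963969 unique molecular identifiers (UMIs), the library labelled KO 8446 with 54052317. Of the kept cells, 5405 and 7625, the median had 4148 and 3567 UMIs, so cells labelled KO were counted less deeply. Levels below are CPM, the UMIs of a gene scaled to a class total of 1000000 UMIs. In the macrophage gate Mettl3 was counted at 10.7 and 10.9 CPM (log2 ratio of KO to WT 0.03, interval -0.28 to 0.35), and Lyz2, of which the KO group has 1 intact allele, at 6427 and 2860.3 CPM. Mettl3 counts were thus not lower in the library labelled KO, and both libraries are named below as labelled. The counts come from transcript 3′ ends, which show an excision only if it takes them away, and Tox4 overlaps Mettl3 on the opposite strand. With 1 library per genotype no test between genotypes was possible. All intervals are 95% intervals of counting error, and those of levels and ratios treat each UMI as independent, although 1 cell can hold many. A difference beyond them concerns these libraries, not the genotypes. Variation between mice is not in them, nor, for levels and ratios, is variation between cells.

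Cells were assigned to 14 classes by the number of class markers with a UMI, none of which is a checkpoint gene of the list. The gates kept 1404 and 1839 macrophage cells (WT, then KO, as in every pair of values here), 783 and 2060 monocytes, 332 and 339 CD8 T cells and smaller numbers of the others. Cells passing gates of more than 1 leucocyte lineage (T or NK, B or plasma, granulocyte, macrophage or DC) were set aside as mixed. So were macrophage gate cells that also passed the cDC1, mature DC or plasmacytoid DC gate. The monocyte gate was not among these lineages, and cells passing the melanoma gate stayed in it even if they passed another gate. The mixed cells were 488 (9.03%) and 364 (4.77%), with median depths of 15323.5 and 13111.5 UMIs, and 964 (17.8%) and 1521 (19.9%) cells passed no gate. The thresholds of the gates were chosen with the data in view. At the lowest marker number a gate accepts stood 302 and 498 macrophage gate cells, 188 and 516 monocyte gate cells, 70 and 90 CD8 T gate cells, and 74 of 102 and 89 of 113 cDC2 gate cells. CD8 T gate cells had a median of 2.56 and 1.49 macrophage marker UMIs per 10000, against 126 and 106 in the macrophage gate. The melanoma gate held 136 and 226 cells although CD45+ cells were sorted, and Ptprc, which encodes CD45, had a UMI in 26.5% and 16.8% of them. There were 13 barcode sequences shared by both libraries.

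Over all deposited barcodes, Lgals9 gave 5546 and 8466 UMIs, Cd274 3820 and 5428, Cd86 1821 and 2844, Pdcd1lg2 719 and 1031 and Cd80 564 and 873. Among the receptors, Havcr2 gave 1330 and 1529 UMIs, Lag3 1308 and 1375, Pdcd1 789 and 871, Ctla4 397 and 431 and Tigit 35 and 31. The share of barcodes with a UMI ran from 0.526% and 0.367% for Tigit to 40.4% and 43.8% for Lgals9. The receptor genes Pdcd1, Ctla4 and Tigit lay mostly in T cells and in cells set aside as mixed. Macrophage gate cells held more UMIs than any other class for Cd274, Cd86 and Lgals9, and also for the receptor gene Havcr2, in a gate that held 36.5% and 34.7% of all UMIs of the kept cells.

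**Figure D1:**
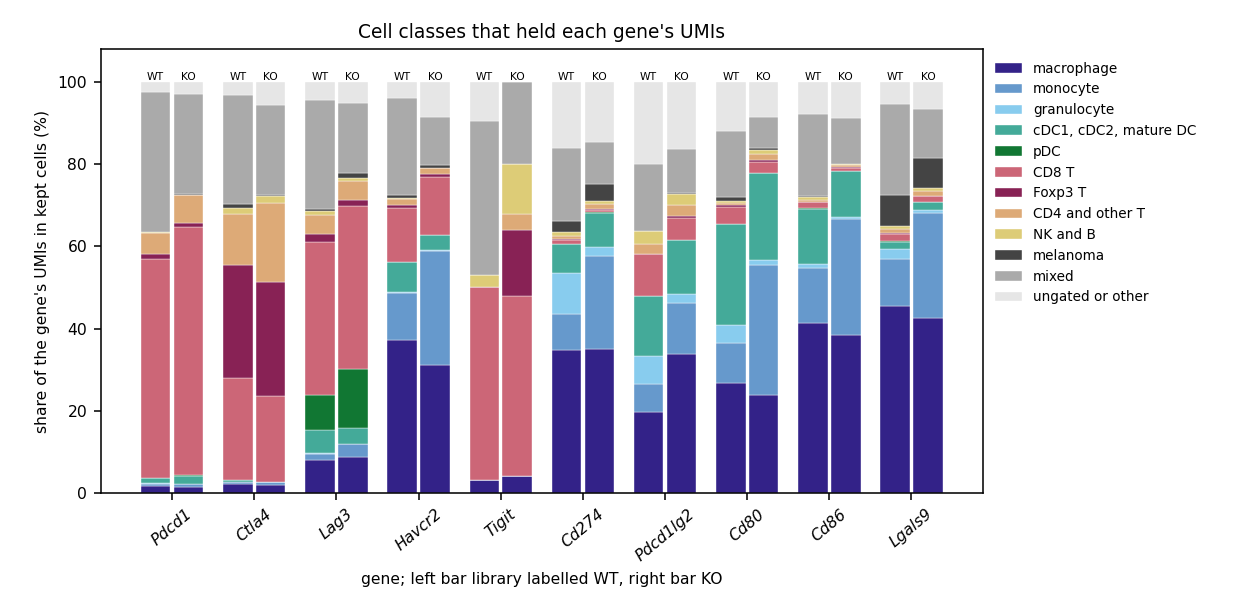
Stacked bars give the percentage of each gene's UMIs in kept cells that lay in each cell class, the left bar of a pair for the library labelled WT and the right for KO. CD8 T gate cells held 53.2% and 60.2% of the Pdcd1 UMIs (beside 3.96% and 3.96% of all UMIs), and macrophage gate cells 45.6% and 42.5% of the Lgals9 UMIs (beside 36.5% and 34.7% of all UMIs).

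Pdcd1 (ENSMUSG00000026285; chromosome 1, 94038305 to 94052553, minus strand; coordinates here and below on GRCm38) was a gene of CD8 T cells in these tumours. In the CD8 T gate it was counted at 234 CPM in the library labelled WT (387 UMIs, interval 211 to 258) and 232 CPM in the library labelled KO (434 UMIs, interval 211 to 255). A Pdcd1 UMI was seen in 38.3% (interval 33.0 to 43.7%) and 40.7% (interval 35.4 to 46.1%) of these cells, and in 12.1% and 14.4% after each cell was thinned to 1000 UMIs. The levels in both libraries overlapped within counting error. The macrophage gate, taken as background, had a Pdcd1 UMI in 0.712% and 0.544% of cells at 9080.5 and 7285 median UMIs, against 2795 and 2694 in the CD8 T gate. The CD8 T share thus stood above this background in shallower cells. The CD8 T level was above that of every other class in each library. It was followed by the CD4 T gate without Foxp3 (129 and 65.8 CPM), the Foxp3 T gate (62.8 and 45.2 CPM) and other T cells (45.1 and 54.4 CPM), whose neighbouring intervals overlapped. Mature dendritic cells (DCs) came next with 17.0 and 15.0 CPM from 10 and 12 UMIs. The NK, B and granulocyte gates had 1 UMI each in the library labelled WT and 0 in the other, and the cDC2 gate had none in both.

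**Figure D2:**
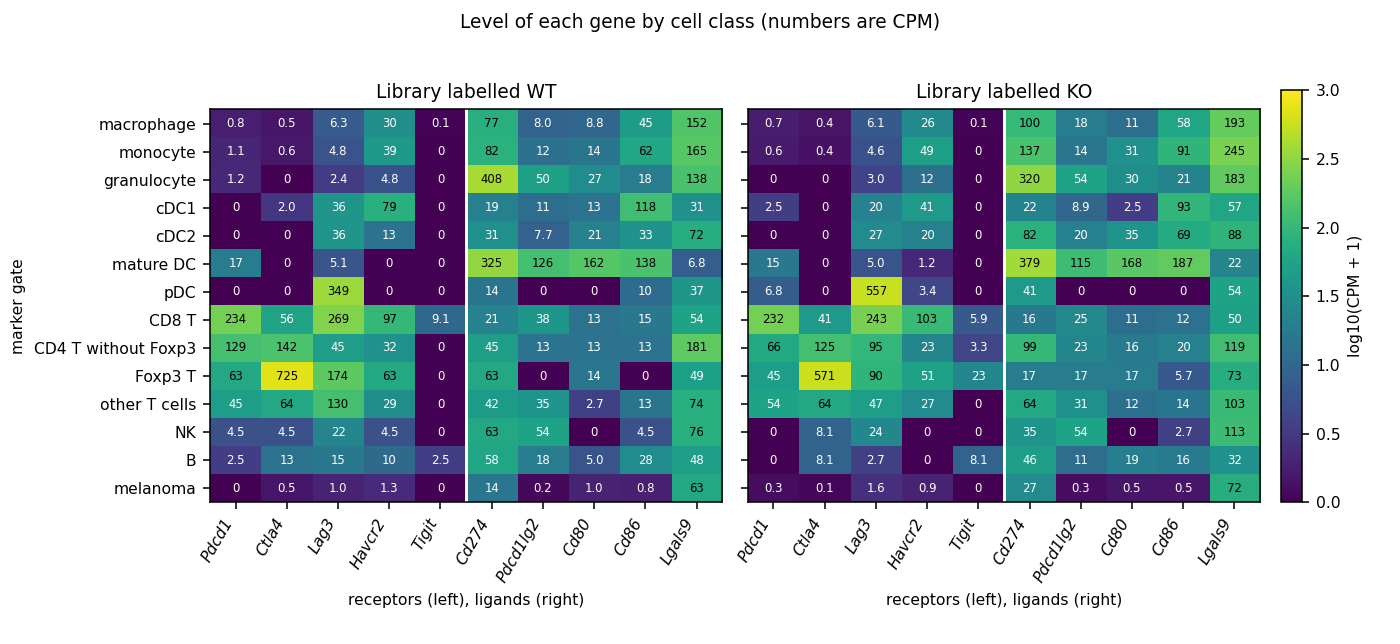
Levels in CPM (numbers) and as log10(CPM + 1) (colour) for the 5 receptors and 5 ligands in 14 marker gates, 1 panel per library. Ctla4 stood highest in the Foxp3 T gate, Lag3 in the plasmacytoid DC gate, and Pdcd1lg2, Cd80 and Cd86 in the mature DC gate of each library.

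Ctla4 (ENSMUSG00000026011; chromosome 1, 60887000 to 60915832, plus strand) was counted above all in T cells with a UMI of Foxp3, the regulatory T cell factor. The Foxp3 T gate held 24 and 21 cells, and 21 and 19 of them had a Ctla4 UMI, 87.5% (interval 67.6 to 97.3%) and 90.5% (interval 69.6 to 98.8%). The level was 725 CPM (104 UMIs, interval 593 to 879) and 571 CPM (101 UMIs, interval 465 to 694), and the median depths of these few cells differed, 3354 and 7788 UMIs. The intervals of both libraries overlapped, and both lay above those of every other class. The CD4 T gate without Foxp3 had 142 and 125 CPM, other T cells 63.7 and 64.1 and the CD8 T gate 56.2 and 40.6, with overlapping neighbours. In the CD8 T gate 1 cell held 26 of the 93 UMIs labelled WT, and 12.7% and 12.98% of cells had a UMI. Macrophage gate cells had one in 0.570% and 0.381%, and the granulocyte, cDC2, mature DC and plasmacytoid DC gates had none. A ribosomal protein pseudogene, Rpl18-ps1, overlaps Ctla4 on the same strand.

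Lag3 (ENSMUSG00000030124; chromosome 6, 124904361 to 124911705, minus strand) was counted in plasmacytoid DCs as well as in T cells. Plasmacytoid DCs are the dendritic lineage specialised in type I interferon, and 67.1% and 76.4% of the 76 and 89 cells had a Lag3 UMI (thinned 28.0% and 44.9%). The level there was 349 CPM (103 UMIs, interval 285 to 423) and 557 CPM (165 UMIs, interval 475 to 649). CD8 T gate cells had 269 CPM (445 UMIs, interval 244 to 295) and 243 CPM (454 UMIs, interval 221 to 266), with a UMI in 46.7% and 43.7% of cells (thinned 22.0% and 18.2%). In the library labelled WT the plasmacytoid DC and CD8 T levels overlapped, and in the library labelled KO the plasmacytoid DC level was the higher one. The CD4 T gate without Foxp3 (45.2 and 95.5 CPM from 7 and 29 UMIs) and other T cells (130.1 and 46.6 CPM from 49 and 24 UMIs) lay below the CD8 T gate beyond the intervals. The Foxp3 T gate (174 and 90.4 CPM from 25 and 16 UMIs) overlapped with it in the library labelled WT (interval 113 to 257) and lay below it in the other (interval 51.7 to 147). Conventional DCs held less Lag3, 36.1 and 20.4 CPM in cDC1 and 36.1 and 27.2 CPM in cDC2 cells, and mature DCs 5.10 and 4.98 CPM. B gate cells had a UMI in 0.752% and 0.917%, at 1606 and 1393 median UMIs, taken as background for this share.

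Havcr2 (ENSMUSG00000020399; chromosome 11, 46454935 to 46481255, plus strand) was split between lymphoid and myeloid cells. Its level was 97.2 CPM (161 UMIs, interval 82.8 to 113) and 103 CPM (193 UMIs, interval 89.2 to 119) in the CD8 T gate, where 25.3% and 25.4% of cells had a UMI. cDC1 cells, the cross-presenting lineage, had 79.2 CPM (79 UMIs, interval 62.7 to 98.7) and 40.7 CPM (32 UMIs, interval 27.9 to 57.5). In the library labelled WT the CD8 T and cDC1 levels overlapped, and in the library labelled KO they did not. After thinning, the cDC1 share was 2.25% and 7.04%, 2 and 5 cells, which gives no order. Macrophages had 29.8 and 26.0 CPM and monocytes 38.5 and 48.7 CPM. Of the Havcr2 UMIs of the kept cells, 37.3% and 31.2% lay in the macrophage gate, beside 36.5% and 34.7% of all UMIs. The monocyte gate held 11.2% and 27.7% of them beside 8.49% and 16.5% of all UMIs, and the CD8 T gate 13.2% and 14.1% beside 3.96% and 3.96%. Mature DCs and plasmacytoid DCs each had 0 Havcr2 UMIs in the library labelled WT and 1 in the other.

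Tigit (ENSMUSG00000071552; chromosome 16, 43648867 to 43664146, minus strand) was barely detected, with 32 and 25 UMIs in kept cells, 15 and 11 of them in the CD8 T gate, 0 and 4 in the Foxp3 T gate and 12 and 5 in mixed cells. A UMI was seen in 3.61% and 3.24% of CD8 T gate cells. Its level there was 9.06 and 5.88 CPM (intervals 5.07 to 14.9 and 2.94 to 10.5), and no difference between the libraries was detectable at this depth. The macrophage, monocyte and melanoma gates, with 1 UMI or none per library, lay below these intervals. The Foxp3 T gate had 4 UMIs in 21 cells labelled KO and 0 in 24 labelled WT, where a limit of 3 counts for a count of 0 allows a share of cells with a UMI of up to 12.5%.

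Cd274 (ENSMUSG00000016496; chromosome 19, 29367455 to 29388095, plus strand) had its highest levels in granulocytes and mature DCs. The granulocyte gate had 408 CPM (342 UMIs, interval 366 to 454) and 320.1 CPM (107 UMIs, interval 262 to 387). Mature DCs, which carry antigen to lymph nodes, had 325 CPM (191 UMIs, interval 280.4 to 374) and 379 CPM (304 UMIs, interval 337 to 424). These 2 classes overlapped in each library and stood above all others. A Cd274 UMI was seen in 25.6% and 24.4% of granulocytes at 1405 and 1086 median UMIs, and in 22.4% and 18.3% after thinning. Thinning left out 76 of 465 and 83 of 209 granulocytes as too shallow. In mature DCs the share was 78.4% and 79.7% at 5151 and 4656 median UMIs, and after thinning it was 30 of 100 cells and 31.2%. Monocytes (82.4 and 137 CPM) and macrophages (77.4 and 100.1 CPM) followed, which overlapped in the library labelled WT and not in the other. Melanoma gate cells had a UMI in 33.8% and 41.2% of cells, but at 47000 and 34756 median UMIs, and their level was 14.2 and 26.9 CPM. Cd274 UMIs lay in the macrophage gate for 34.9% and 35.0%, beside 36.5% and 34.7% of all UMIs, and in the monocyte gate for 8.63% and 22.6%, beside 8.49% and 16.5%. The granulocyte gate held 10.1% and 2.28% of them and 2.002% and 0.707% of all UMIs. Cells that fitted no gate held 16.0% and 14.5% of them and 4.84% and 6.94% of all UMIs. The annotated gene AC119228.1 overlaps Cd274 on the opposite strand.

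Pdcd1lg2 (ENSMUSG00000016498; chromosome 19, 29410919 to 29471161, plus strand), the neighbour of Cd274, was highest in mature DCs, at 126 CPM (74 UMIs, interval 98.8 to 158) and 115 CPM (92 UMIs, interval 92.4 to 141), with a UMI in 40.2% and 39.9% of cells. No other class overlapped with this level. NK gate cells (53.9 and 54.0 CPM from 12 and 20 UMIs) and granulocytes (50.1 and 53.9 CPM from 42 and 18 UMIs) came next. PD-L2 is best known from myeloid cells, and the CD8 T gate also held 63 and 47 UMIs, in 12.95% and 10.9% of cells, with 38.0 and 25.1 CPM, which is above the macrophage level of 7.98 and 17.8 CPM beyond the intervals in the library labelled WT. Plasmacytoid DCs had no Pdcd1lg2 UMI in 76 and 89 cells, which by the same limit of 3 counts allows a share of cells with a UMI of up to 3.95% and 3.37%. A930007I19Rik overlaps the gene on the opposite strand.

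Cd80 (ENSMUSG00000075122; chromosome 16, 38455561 to 38496335, plus strand) and Cd86 (ENSMUSG00000022901; chromosome 16, 36603869 to 36666081, minus strand), the ligands of CD28 and CTLA-4, were both highest in mature DCs. Cd80 reached 162 CPM (95 UMIs, interval 131 to 198) and 168 CPM (135 UMIs, interval 141 to 199) there, above every other class beyond the intervals. Macrophages had 8.83 and 11.3 CPM and monocytes 13.8 and 31.5 CPM. NK gate and plasmacytoid DC gate cells had no Cd80 UMI in either library. Cd86 reached 138 CPM (81 UMIs, interval 109 to 171) and 187 CPM (150 UMIs, interval 158 to 219) in mature DCs, and 118 and 92.9 CPM in cDC1 cells. The mature DC and cDC1 levels of Cd86 overlapped in the library labelled WT and did not in the library labelled KO. A Cd86 UMI was seen in 34.3% and 45.9% of mature DCs (thinned 12.0% and 15.3%) and in 66.3% and 56.3% of the deeper cDC1 cells (thinned 8.99% and 5.63%, 11179 and 10484 median UMIs). A Cd80 UMI was seen in 44.1% and 50.7% of mature DCs (thinned 12.0% and 16.0%). In melanoma gate cells, the deepest class, Cd86 had a UMI in 3.68% and 1.77%.

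Lgals9 (ENSMUSG00000001123; chromosome 11, 78962974 to 78984946, minus strand) was counted in every class. Monocytes had 165 CPM (586 UMIs, interval 152 to 179) and 245 CPM (1907 UMIs, interval 234 to 256), macrophages 152 CPM (2331 UMIs, interval 146 to 159) and 193 CPM (3162 UMIs, interval 186 to 199.6). The order of these 2 classes was within counting error in the library labelled WT and beyond it in the library labelled KO. The CD4 T gate without Foxp3 had 181 and 119 CPM, on 28 and 36 UMIs of 60 and 94 cells, and granulocytes had 138 and 183 CPM. Melanoma gate cells had 63.4 and 72.2 CPM, with a UMI in 73.5% and 63.7% of these deep cells. Mature DCs, the class with the highest Pdcd1lg2, Cd80 and Cd86 levels, had the least Lgals9, 6.80 and 22.4 CPM from 4 and 18 UMIs, apart from every other class in the library labelled WT and overlapping with B cells and plasmacytoid DCs in the other. Their share of cells with a UMI was 2.94% and 8.78%.

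The libraries were then compared class by class, with a gene called past 1.5-fold where its level in the library labelled KO was at least 1.5 times higher or lower than in WT, among genes with at least 50 UMIs over both libraries of the class. Over all kept cells, 0 of the 10 checkpoint genes passed 1.5-fold, where 3.32% of 13325 genes were past it upwards and 2.62% downwards. The ligand genes lay at log2 ratios of 0.29 (Cd274), 0.31 (Pdcd1lg2), 0.44 (Cd80), 0.42 (Cd86) and 0.37 (Lgals9), and the receptor genes at -0.19 (Pdcd1), -0.22 (Ctla4), -0.24 (Lag3), -0.01 (Havcr2) and -0.53 (Tigit). All 5 ligand intervals lay above 0, and those of Pdcd1, Ctla4 and Lag3 below it. With each cell given equal weight, Cd274 and Pdcd1lg2 lay on the other side, at -0.11 and -0.42, and after thinning at -0.17 and -0.37. Havcr2 also lay on the other side under these settings, at 0.30 and 0.42. Pdcd1 was past 1.5-fold under both (-0.67 and -0.64), and Ctla4 (-1.11) and Cd80 (0.71) were past it after thinning. Tigit, on the fewest UMIs, lay at -1.32 with equal weight and at 1.11 after thinning. Of all genes, 10.7% and 16.8% were then past 1.5-fold in either direction. These totals follow the makeup of each library as well as the level in a cell, since monocyte gate cells were 14.5% and 27.0% of kept cells and CD8 T gate cells 6.14% and 4.45%.

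In the macrophage gate, 1 of the 7 checkpoint genes with enough UMIs was past 1.5-fold, Pdcd1lg2, beside 2.82% of all genes upwards and 1.84% downwards. Pdcd1lg2 was 7.98 CPM (122 UMIs, interval 6.62 to 9.53) and 17.8 CPM (292 UMIs, interval 15.8 to 19.97). Its log2 ratio was 1.16, interval 0.85 to 1.48. A UMI was seen in 6.55% and 11.4% of macrophages, so the share went the same way as the level. After thinning the share was 1.01% and 1.98%, from 14 and 36 cells, with overlapping intervals (0.55 to 1.69% and 1.39 to 2.74%). Cd274 (0.37, interval 0.26 to 0.48), Cd86 (0.38, interval 0.24 to 0.52), Cd80 (0.35, interval 0.03 to 0.68) and Lgals9 (0.34, interval 0.26 to 0.42) were higher in the library labelled KO beyond counting error but under 1.5-fold. After thinning, Cd80 lay at 1.14 and Cd274 at 0.60, both past 1.5-fold, where 21.5% of all genes were past it in either direction. Havcr2 was -0.20 (interval -0.39 to -0.002) and Lag3 -0.06 (interval -0.47 to 0.36), and after thinning Havcr2 turned to 0.24. The median of the 7 was 0.35, beside 0.02 over all genes. The 3 genes below the minimum, Pdcd1, Ctla4 and Tigit, had 12, 8 and 1 UMIs in the library labelled WT and 11, 7 and 1 in the other. Macrophage gate cells labelled KO were shallower (9080.5 and 7285 median UMIs), and the part of depth in these ratios was not tested beyond the thinned values.

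In the monocyte gate, Cd274 and Cd80 were past 1.5-fold, 2 of 7, beside 4.19% of all genes upwards and 2.59% downwards. Cd274 was 82.4 CPM (293 UMIs, interval 73.2 to 92.4) and 137 CPM (1063 UMIs, interval 129 to 145), a log2 ratio of 0.73, interval 0.54 to 0.92. A Cd274 UMI was seen in 19.9% and 28.2% of monocytes, and in 6.74% and 11.3% after thinning. Cd80 was 13.8 CPM (49 UMIs, interval 10.2 to 18.2) and 31.5 CPM (245 UMIs, interval 27.7 to 35.7), a log2 ratio of 1.19, interval 0.75 to 1.67. Both were higher in the library labelled KO without overlap of the intervals. Lgals9 (0.57, interval 0.44 to 0.71), Cd86 (0.56, interval 0.34 to 0.78) and Havcr2 (0.34, interval 0.05 to 0.63) were on the same side under 1.5-fold, and Pdcd1lg2 (0.25, interval -0.28 to 0.80) and Lag3 (-0.05, interval -0.92 to 0.88) had intervals across 0. After thinning, Lgals9 (0.92), Cd86 (0.86), Pdcd1lg2 (0.72) and Lag3 (-0.72) were also past 1.5-fold and Cd80 lay at 1.95, where 21.4% of all genes were past it. Lgals9 and Cd86 were past it too as the mean of per-cell CPM (0.62 and 0.64), where 9% of all genes were. With classes from clusters Cd86 lay at 0.59 and Lag3 turned to 1.04, and with 1 more marker required Cd80 lay at 0.75 and Cd86 at 0.59. The median of the 7 was 0.56, beside about 0 over all genes. Of the interferon-inducible genes Irf1, Cxcl9, Cxcl10 and Gbp2, 2 of 4 were past 1.5-fold upwards, Cxcl10 at 0.86 and Gbp2 at 0.88, and 0 downwards, and their part in the checkpoint values was not tested. In the macrophage gate 0 of the 4 were past it in either direction, with log2 ratios of 0.07 to 0.38.

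**Figure D3:**
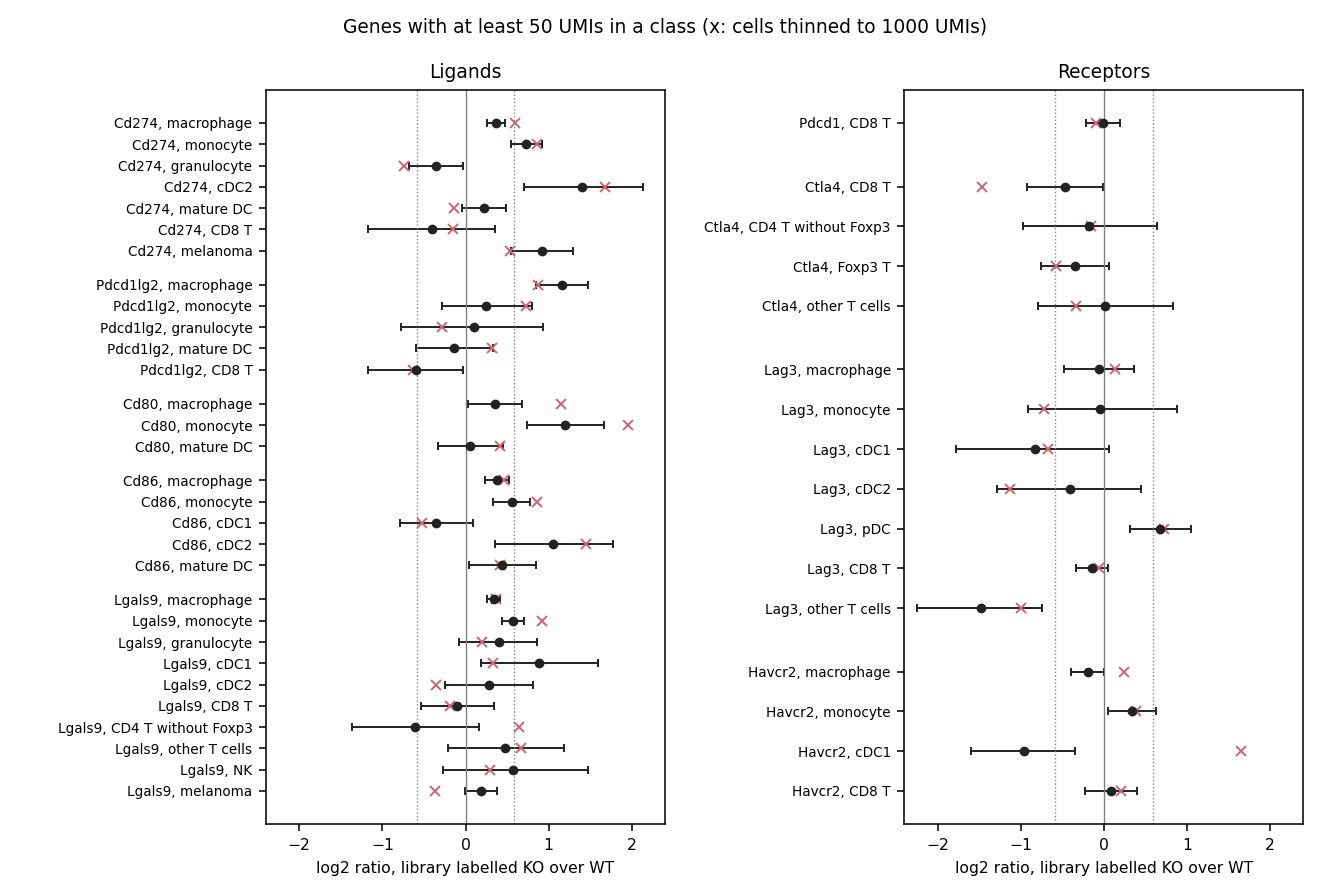
Log2 ratio of the library labelled KO to WT for each gene and class with at least 50 UMIs, with 95% counting intervals (black) and the value after thinning each cell to 1000 UMIs (crosses). Dotted lines mark 1.5-fold. The myeloid ligand values lay above 0 in the macrophage and monocyte gates, and Pdcd1 in the CD8 T gate lay at -0.01.

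Among DCs, cDC2 cells, which present antigen to CD4 T cells, had 2 of 4 genes with enough UMIs past 1.5-fold, Cd274 (24 and 66 UMIs, 30.9 and 81.6 CPM, log2 ratio 1.40, interval 0.71 to 2.14) and Cd86 (26 and 56 UMIs, 33.5 and 69.2 CPM, log2 ratio 1.05, interval 0.35 to 1.78), beside 6.34% of all genes upwards and 5.07% downwards. 1 cell labelled KO held 14 of the 66 Cd274 UMIs. Of the interferon-inducible list, 3 of 4 were past 1.5-fold upwards in this gate. With 1 more marker required the Cd274 ratio was 0.31, and with classes from clusters 0.50, both under 1.5-fold. Lag3 in cDC2 cells, at -0.41, was past 1.5-fold upwards under these settings (0.77 and 1.14) and downwards after thinning (-1.13), where 26.5%, 4.15% and 42.8% of all genes were past it. In cDC1 cells Havcr2 (79 and 32 UMIs, 79.2 and 40.7 CPM, log2 ratio -0.96, interval -1.60 to -0.35) and Lag3 (36 and 16 UMIs, 36.1 and 20.4 CPM, log2 ratio -0.83, interval -1.77 to 0.06) were lower past 1.5-fold and Lgals9 (31 and 45 UMIs, 31.1 and 57.3 CPM, log2 ratio 0.88, interval 0.19 to 1.59) higher, 3 of 4, beside 6.42% upwards and 3.80% downwards. The interval of Lag3 crossed 0. After thinning, Havcr2 turned to 1.65, on too few cells with a UMI to give an order, and Lgals9 was under 1.5-fold at 0.33. Mature DCs had 0 of 4 genes past 1.5-fold, beside 6.87% upwards and 3.23% downwards, and Cd274, Pdcd1lg2, Cd80 and Cd86 lay at 0.22, -0.13, 0.06 and 0.44. As the mean of per-cell CPM Cd86 was past 1.5-fold in mature DCs (0.68), as were 14.4% of all genes, and after thinning Cd274 and Pdcd1lg2 turned to -0.14 and 0.32. In plasmacytoid DCs the 1 gene with enough UMIs, Lag3, was higher under the KO label, at 0.68, interval 0.31 to 1.04, beside 7.72% upwards and 5.14% downwards.

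In the CD8 T gate, 1 of 7 genes with enough UMIs was past 1.5-fold, Pdcd1lg2, lower at -0.60, interval -1.17 to -0.03, beside 4.15% of all genes upwards and 3.51% downwards. It was under 1.5-fold with high doublet scores kept (-0.55), with 1 more marker required (-0.40) and with classes from clusters (-0.49). Among the receptor genes Pdcd1 lay at -0.01, interval -0.21 to 0.19, Lag3 at -0.15, interval -0.34 to 0.05 and Havcr2 at 0.09, interval -0.22 to 0.40. Ctla4 lay at -0.47, interval -0.92 to -0.01, with the 1 cell of many UMIs in the library labelled WT, and was past 1.5-fold as the mean of per-cell CPM (-0.81) and after thinning (-1.47), where 15.6% and 31.3% of all genes were past it. Cd274, at -0.40, interval -1.17 to 0.35, was past 1.5-fold downwards with 1 more marker required (-1.14) and with classes from clusters (-1.03), and upwards as the mean of per-cell CPM (0.70). The interval of Pdcd1 holds its difference between these libraries to less than 1.5-fold in either direction. Of 11 genes of T cell state, 10 had enough UMIs in this gate, 2 of them were past 1.5-fold upwards and 0 downwards. These were the cytotoxic gene Gzmb (granzyme B), at 842 and 1442 CPM and a log2 ratio of 0.78, and the cytokine gene Ifng (interferon gamma), at 223 and 346 CPM and 0.63. Prf1, the perforin gene, was under 1.5-fold. An Ifng UMI was seen in 52.8% and 60.1% of cells with a Pdcd1 UMI and in 23.9% and 18.4% of those without. Tox, a factor of dysfunctional T cells, was 228 and 159.9 CPM, at -0.51. Other T cells, which had neither a CD8 nor a CD4 assignment, had 1 of 3 genes past 1.5-fold, Lag3 at -1.48, interval -2.25 to -0.75 from 49 and 24 UMIs, of which the richest cell of each library held 14 and 7, beside 7.75% upwards and 4.02% downwards. Lgals9 in other T cells, at 0.47, was past it after thinning (0.67), as were 25.4% of all genes. The CD4 T gate without Foxp3 had 1 of 2, Lgals9 at -0.61, interval -1.36 to 0.16, which turned to 0.64 after thinning and was under 1.5-fold with high doublet scores kept (-0.48) and with 1 more marker required (-0.34), beside 9.15% upwards and 9.51% downwards. The Foxp3 T gate had 0 of 1, Ctla4 at -0.35, interval -0.76 to 0.06, beside 8.96% and 5.94%, and the NK gate 0 of 1, Lgals9 at 0.57, interval -0.27 to 1.48, beside 8.89% and 5.79%. With classes from clusters both were past it, at -0.61 and 0.75, as were 17.6% and 13.1% of all genes. Lgals9 in the NK gate was also past it with high doublet scores kept (0.67) and with the stricter cell filter (0.59). The B gate had no checkpoint gene with enough UMIs.

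In the melanoma gate Cd274 was higher under the KO label, 14.2 and 26.9 CPM from 86 and 201 UMIs, at 0.92, interval 0.55 to 1.30, and Lgals9 lay at 0.19, interval -0.0043 to 0.38. Of the interferon-inducible list, 1 of 4 was past 1.5-fold upwards in this gate (Cxcl9) and 1 downwards (Cxcl10). Weighting cells equally took the Cd274 ratio to 0.05, and thinning to 0.53. That was 1 of 2 genes past 1.5-fold, beside 4.50% of all genes upwards and 3.44% downwards. The granulocyte gate had 0 of 3, beside 11.8% and 7.09%, and 0 of the 4 interferon-inducible genes in either direction. There Cd274 was lower under the KO label, at -0.35, interval -0.68 to -0.03, the opposite side from macrophages, monocytes, cDC2 and melanoma cells, and median-of-ratios scaling moved the median of all genes of this gate by -0.11. With classes from clusters the granulocyte value turned to 0.30. It was past 1.5-fold downwards after thinning (-0.74), which left out 76 of 465 and 83 of 209 cells, and with 1 more marker required (-0.68). Lgals9 in granulocytes, at 0.40, was past 1.5-fold as the mean of per-cell CPM (0.59) and with clusters (0.65). Over these 4 settings 6.44% to 33.9% of all genes of the gate were past it in either direction. Whether the Cd274 ratios of these classes differ was not tested.

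Receptors were counted together in the same CD8 T cells. Among the 127 cells labelled WT with a Pdcd1 UMI, Lag3 had a UMI in 83.5% (interval 75.8 to 89.5%), against 23.9% (interval 18.2 to 30.3%) of the 205 cells without one. In the library labelled KO the shares were 76.8% of 138 and 20.9% of 201 cells. Havcr2 had a UMI in 52.8% against 8.29% in the first library and 50.7% against 7.96% in the other, and Ctla4 in 27.6% against 3.41% and 21.7% against 6.97%. Depth differed too, since cells with a Pdcd1 UMI had median depths of 6850 and 7270.5 UMIs and those without 2251 and 1764. Cells with a Pdcd1 UMI after thinning also came from deeper cells, with medians before thinning of 4871 against 2701 and 9073 against 2642 UMIs. After thinning, the Lag3 shares were 41.0% against 19.4% and 26.7% against 16.8%, on 39 and 45 cells with a Pdcd1 UMI. The intervals of Lag3 then stayed apart in the library labelled WT and overlapped in the library labelled KO, and those of Havcr2, Ctla4 and Tigit overlapped in both. Ctla4 in the library labelled KO then had a UMI in 0 of 45 cells with Pdcd1 and 7 of 268 without, the other direction from the values before thinning.

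**Figure D4:**
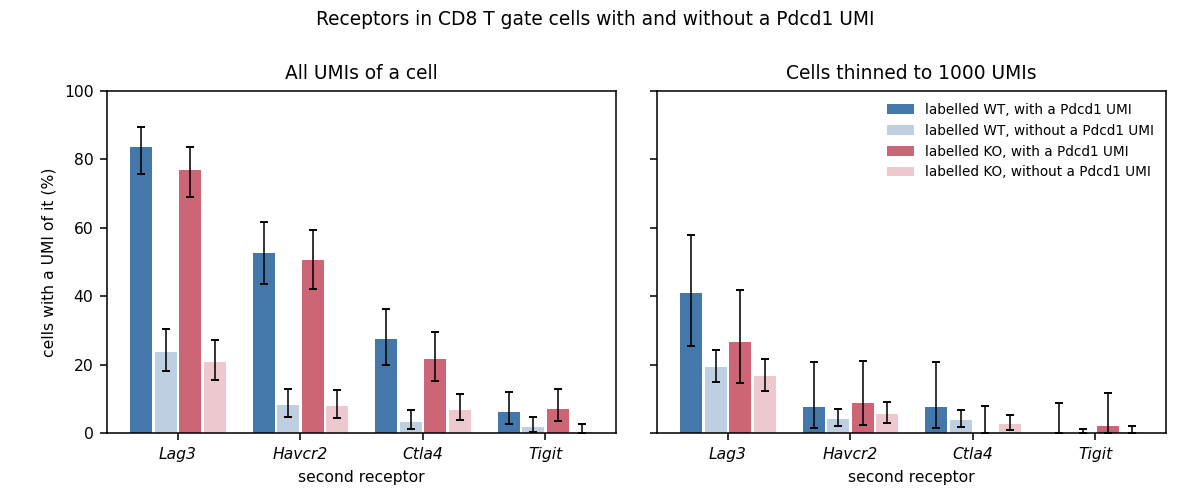
Percentage of CD8 T gate cells with a UMI of Lag3, Havcr2, Ctla4 or Tigit among cells with (dark) and without (pale) a Pdcd1 UMI, with 95% Clopper-Pearson intervals, before and after thinning to 1000 UMIs. The gap for Lag3, 83.5% against 23.9% in the library labelled WT, became 41.0% against 19.4%.

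Summed levels in CPM were compared in the same way. With and without a Pdcd1 UMI, Havcr2 was 125 and 42.9 CPM in the library labelled WT and 124 and 39.3 CPM in the library labelled KO. For Lag3 the pairs were 315 and 179 CPM, and 254 and 209.6 CPM, the latter with overlapping intervals (228 to 281 and 169.8 to 256). Ctla4 was 73.9 and 21.4 CPM, intervals apart, and 42.5 and 34.9 CPM, with overlapping intervals. Tigit, on 15 and 11 UMIs, was 9.12 and 8.93 CPM, and 7.08 and 2.18 CPM, and its intervals overlapped in both libraries. The cytotoxic gene Gzmb was 1139 and 263 CPM, and 1748 and 498 CPM. Tcf7, a factor of naive and memory T cells, went the other way, 6.39 and 177 CPM, and 4.96 and 212 CPM, and so did Il7r, the interleukin-7 receptor gene. Of the 5 receptors, 149 and 145 CD8 T gate cells had a UMI of none, 49 and 65 of 1, 55 and 50 of 2, 57 and 54 of 3, 20 and 25 of 4, and 2 and 0 of all 5. Median depth was higher with more receptors, from 2143 and 1560 UMIs at none to 8407 and 15633 UMIs at 4.

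On the ligand side, monocytes were compared by whether they had a Cd274 UMI after thinning, where the median depths before thinning were close (3464 and 3406 UMIs in the library labelled KO). There Lgals9 had a UMI in 30.6% of the 229 cells with Cd274 (interval 24.7 to 37.0%) and in 19.6% of the 1796 without (interval 17.8 to 21.5%). Of the interferon-inducible list, Gbp2 had one in 43.7% and 26.0%, and Cxcl10 in 34.1% and 18.6%. These 3 genes were more often counted in monocytes with Cd274, beyond the counting intervals. Cd86 (8.30% and 7.52%), Cd80 (3.06% and 3.34%) and Pdcd1lg2 (2.18% and 1.17%) had overlapping intervals, as had Irf1, Cxcl9 and Havcr2. The library labelled WT had 52 thinned monocytes with Cd274. There Gbp2 (32.7% and 15.7%) and Pdcd1lg2 (5.77% and 0.278%) stood apart, and Lgals9 (7.69% and 11.8%) and Cxcl10 (23.1% and 10.7%) did not. The Pdcd1lg2 shares rested on only 3 of 52 and 2 of 719 cells. In the macrophage gate of the library labelled KO, Cxcl10 (25.7% and 14.2%) stood apart in the same way, and Lgals9 (20.9% and 15.7%) and Gbp2 (21.9% and 20.1%) had overlapping intervals, as all 3 had in macrophages labelled WT. These cells share a library and are no replicates.

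A wider list of 27 checkpoint and costimulation genes, 13 receptors and 14 ligands or enzymes, was read beside the 10. In the macrophage gate 19 of them had enough UMIs, of which 1 was past 1.5-fold upwards and 0 downwards, beside the 2.82% and 1.84% of all genes given above, with a median log2 ratio of 0.11. The highest were Cd200 (3.01 and 5.49 CPM, log2 ratio 0.87), which encodes a ligand that restrains myeloid cells, Cd28 (2.68 and 3.90 CPM, log2 ratio 0.54) and Adora2a (2.03 and 2.62 CPM, log2 ratio 0.37), an adenosine receptor gene. The lowest were Nt5e (1.96 and 1.40 CPM, log2 ratio -0.48), which encodes the adenosine-producing CD73, Icosl (15.5 and 13.5 CPM, log2 ratio -0.20) and Cd276 (13.1 and 11.9 CPM, log2 ratio -0.14). In the CD8 T gate 15 had enough UMIs and 0 were past 1.5-fold in either direction, beside 4.15% of all genes upwards and 3.51% downwards, with a median of 0.04. The highest were Lgals3 (345 and 493 CPM, log2 ratio 0.51), Sirpa (27.2 and 37.4 CPM, log2 ratio 0.46) and Icos (38.6 and 49.7 CPM, log2 ratio 0.36), and the lowest Cd96 (47.7 and 37.4 CPM, log2 ratio -0.35), Cd160 (48.3 and 39.6 CPM, log2 ratio -0.29) and Vsir (77.3 and 64.2 CPM, log2 ratio -0.27), which encodes VISTA. Cd200 was also the 1 gene of the list past 1.5-fold over all kept cells and, of 16 with enough UMIs, in the monocyte gate. In the smaller gates the genes of the list past 1.5-fold upwards, with their log2 ratios, were Sirpa of 8 in cDC1 cells (0.98), Fgl2 and Lgals3 of 6 in the CD4 T gate without Foxp3 (0.80 and 0.95) and Cd28 and Lgals3 of 8 in other T cells (0.67 and 0.93). Those past it downwards were Entpd1 of 8 in granulocytes (-0.61), Pvr and Sirpa of 8 in mature DCs (-0.61 and -0.63), Icos and Vsir of 6 in the CD4 T gate without Foxp3 (-0.65 and -0.75), Cd28 and Icos of 3 in the Foxp3 T gate (-0.84 and -0.76), Vsir of 8 in other T cells (-0.82), and Lgals3 of 5 in the NK gate (-0.62) and of 3 in the B gate (-2.18). The cDC2, plasmacytoid DC and melanoma gates had 0 of 9, 4 and 6. The shares of all genes past 1.5-fold in these gates are those given above, and in the B gate they were 11.3% upwards and 12.6% downwards. In the macrophage and monocyte gates each of the 5 ligands lay above the list's median, which was 0.11 and 0.20.

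Genes whose pattern over the classes was most like that of each checkpoint gene were sought by Pearson's correlation of log2(CPM + 10) over 26 points, the 13 classes with at least 50 cells in each library, which share library and cell makeup, so the values are descriptions. For Pdcd1 these were Themis, Cd3g and Cd3e (r 0.940 to 0.926), for Ctla4 Cd5, Cd6 and Camk4 (r 0.979 to 0.964), for Lag3 Sla2, E2f4 and Cd8b1 (r 0.855 to 0.836) and for Havcr2 Oxsr1, Smpdl3b and Rbpj (r 0.770 to 0.746). The genes nearest Pdcd1 and Ctla4 were T cell genes, 2 of them, Cd3g and Cd3e, being markers of the T gate. For the ligands they were Fas, Klf6 and Pfkfb3 (r 0.883 to 0.873) for Cd274, Glipr2, Cdc42ep3 and Nabp1 (r 0.860 to 0.835) for Pdcd1lg2, Gucd1, Pcgf5 and Rab9 (r 0.870 to 0.840) for Cd80, Batf3, Bcl2a1a and Tbc1d9 (r 0.923 to 0.888) for Cd86 and Dusp6, Por and Emp1 (r 0.901 to 0.862) for Lgals9. Batf3 is a transcription factor of cDC1 and mature DCs. Among the checkpoint genes themselves, Pdcd1 with Ctla4 had r 0.850, Cd274 with Cd80 0.746, Cd80 with Cd86 0.719 and Cd274 with Pdcd1lg2 0.668, while Lag3 with Cd274 had -0.504. Tigit had under 200 UMIs over these points and was left out. The Foxp3 T gate, where Ctla4 was highest, had too few cells to enter.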

How the data were processed

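Single-cell RNA was counted by the 10x 3′ method in live CD45+ cells from B16 tumours, with 1 library of pooled mice per genotype. The deposited values were raw counts of unique molecular identifiers (UMIs) per gene and barcode, which the authors made with Cell Ranger 4.0.0 against mouse mm10 and joined in 1 matrix. Whether reads were subsampled on joining is not given in the sources used here.

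Barcodes with at least 200 genes and at most 10% mitochondrial UMIs were kept, 5661 and 8157. The automatic threshold of Scrublet (in scanpy 1.11.5) marked 1 cell per library and had not worked, so the highest scores were removed at 0.8% per 1000 cells, 256 and 532 cells. Cells were gated on marker genes with a UMI, and those passing gates of several leucocyte lineages, as given above, were set aside. Cells passing the melanoma gate stayed in it. UMIs were summed per class and library and scaled to 1000000 (CPM). Exact Poisson intervals were given for levels, Clopper-Pearson intervals for shares and conditional binomial intervals for ratios, computed with scipy 1.17.1 at the 95% level. These cover counting error only. Ratios were read for genes with at least 50 UMIs over both libraries of a class. Shares were also taken after thinning each cell to 1000 UMIs, leaving out 506 and 828 shallower cells. The ratio and call scripts were checked on simulated counts.

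The genes named are the 10 checkpoint genes, Mettl3 and Lyz2, the 3 highest and lowest of the wider list in the macrophage and CD8 T gates, 11 T cell state genes (those not named were under 1.5-fold in the CD8 T gate or had no UMI), 4 interferon-inducible genes and the 3 genes most like each checkpoint gene. Genes of the wider list outside the macrophage and CD8 T gates were named after their values were seen. The interferon-inducible list as first drawn up held a further gene, which is not reported here and was left out without regard to its values. The genes and lists were chosen with earlier results of these data known. Alternatives changed the cell filters, doublet removal, scaling, cell weight, depth, gates and low-count filter.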

Additional observations from a re-analysis of the deposited data

Results flagged for a closer look

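Cd274, the PD-L1 gene, had ratios on both sides of 0, beyond counting error, in different classes. Its log2 ratio of the library labelled KO to WT was 0.37 in the macrophage gate, 0.73 in the monocyte gate, 1.40 in the cDC2 gate and 0.92 in the melanoma gate, and -0.35 in the granulocyte gate. The granulocyte classes also differed in size, 465 cells labelled WT and 209 labelled KO. With classes from clusters the granulocyte ratio of Cd274 turned to 0.30. The cDC2 ratio was 0.50 with clusters and 0.31 with 1 more marker required, and the melanoma ratio was 0.05 as the mean of per-cell CPM. Pdcd1lg2, the PD-L2 gene, was at 1.16 in the macrophage gate and at -0.60 in the CD8 T gate, where it was under 1.5-fold with high doublet scores kept (-0.55), with 1 more marker (-0.40) and with clusters (-0.49). Lag3 was at 0.68 in the plasmacytoid DC gate and at -1.48 in other T cells. Havcr2 was at 0.34 in the monocyte gate, -0.20 in the macrophage gate and -0.96 in the cDC1 gate. After thinning it was at 1.65 in the cDC1 gate, on too few cells with a UMI to give an order, and at 0.24 in the macrophage gate. With 1 library per genotype the difference between classes was not tested for any of these genes.

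Receptor UMIs also lay in the cells set aside as mixed, which the class comparisons did not use. These cells were 9.03% and 4.77% of kept cells and held 34.2% and 24.5% of the Pdcd1 UMIs in the libraries labelled WT and KO. For Ctla4 they held 26.6% and 21.9%, and for Tigit 37.5% and 20% (12 of 32 and 5 of 25 UMIs). They held 26.4% and 17.1% of the Lag3 UMIs, 23.7% and 11.7% of the Havcr2 UMIs and 22.1% and 12.0% of the Lgals9 UMIs. Their shares of all UMIs were 19.8% and 11.6%, and the KO shares of Havcr2 and Lgals9 lay close to the latter. Their median depths were 15323.5 and 13111.5 UMIs, against 4148 and 3567 over all kept cells.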

How the results depend on the processing

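No paired analysis was possible because each genotype is 1 library, and for the same reason no replicate could be left out. The number of checkpoint genes past 1.5-fold was 0 over all kept cells, and 2 as the mean of per-cell CPM and 4 after thinning to 1000 UMIs. In the macrophage gate it was 1, and 3 after thinning. In the monocyte gate it was 2, and 4 as the mean of per-cell CPM, 6 after thinning and 4 with classes from clusters. In the CD8 T gate it was 1, and 0 with high doublet scores kept, 3 as the mean of per-cell CPM and 2 after thinning. Over all classes it was 13 of 46 pairs of a gene and a class, and 46 of 107 without the filter on low counts. The share of all genes past 1.5-fold, in either direction, also moved with these settings. Over all kept cells it was 5.94%, and 10.7% as the mean of per-cell CPM and 16.8% after thinning, and in the macrophage gate it was 4.66%, and 21.5% after thinning. In the monocyte gate it was 6.78%, and 9% as the mean of per-cell CPM, 21.4% after thinning and 4.48% with clusters. In the CD8 T gate it was 7.66%, and 7.04% with high doublet scores kept, 15.6% as the mean of per-cell CPM and 31.3% after thinning. Over the pairs of a gene and a class it was 9.47%, and 33.3% without the low-count filter. Thinning turned the log2 ratio of Havcr2 in cDC1 cells to 1.65, on too few cells with a UMI to give an order. It turned that of Lgals9 in the CD4 T gate without Foxp3 to 0.64. It also turned the difference in the share of macrophages with Havcr2 to 0.599 percentage points, and that of Ctla4 between CD8 T gate cells labelled KO with and without a Pdcd1 UMI to -2.61 percentage points. The cause was not tested. Median-of-ratios scaling and both cell filters moved none of the 56 log2 ratios beyond its counting interval. Thinning moved 22 of them beyond it and turned a further 2 past 1.5-fold to the other side, and the mean of per-cell CPM moved 11. Of the 46 in gated classes, classes from clusters moved 6 and 1 more marker moved 4. Of the gated cells, 8181 of 9649 (84.8%) had the same class by clusters. Tigit rested on 32 and 25 UMIs in the kept cells, too few for a ratio in any class.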
